A study of Mus musculus with 12 samples.

Results

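The comparison describes how gene expression in unirradiated LSK cells differed without NIPA, across all genes that the arrays could name. LSK cells are bone marrow cells that lack lineage markers and carry SCA1 and cKIT, a fraction enriched for haematopoietic stem cells and early progenitors. Of the 12 arrays of the series, 6 were compared: 3 of untreated NIPA knockout (KO) cells and 3 of untreated wild type (WT) cells. The other 6 arrays hold KO and WT cells that received 4 Gy of ionizing radiation and were used for the shared estimate of the spread and for values set side by side. Of 41345 probe sets on the array, 23521 had exactly 1 gene symbol. They measured 22180 genes, each by its brightest probe set, and 15348 of these passed a lower limit on brightness and were tested.

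All donors were mice older than 20 months that had been backcrossed to C57BL/6, so both genotypes were aged and no young animals enter the comparison. Sorted cells of 3 mice were merged for each array, kept in medium with IL-3, IL-6 and stem cell factor and harvested after 3 h of culture. The untreated cells of both genotypes were therefore exposed to these cytokines and are not cells straight from marrow. The labels do not say which exons the KO animals lack, or whether all tissues lack them.

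NIPA, encoded by Zc3hc1, is an F-box-like protein that joins the SCF type of ubiquitin ligase and is known for directing cyclin B1 for degradation outside mitosis, which restrains early entry into mitosis. It has also been linked to the Fanconi anaemia protein FANCD2, a central factor in the repair of DNA crosslinks, and to the nuclear pore. In the marrow, LSK cells hold quiescent stem cells together with primed progenitors, and their RNA reports on cell cycle, lineage priming and signals such as interferon and NF-kB.

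The arrays resembled each other closely and differed in the make-up of the pools. Correlations across the tested genes, which are not independent replicates, were 0.978 to 0.986 within the untreated groups and 0.968 to 0.988 between them. Xist, the RNA of the inactive X chromosome, had log2 values of 11.20, 4.83 and 11.44 in WT arrays 1 to 3 and 9.21, 11.28 and 5.37 in the KO arrays. Eif2s3y, a Y-linked gene, had 4.68, 8.64 and 7.73 in WT and 8.55, 7.74 and 8.99 in KO. The pools thus differed in the sexes of their mice, and WT array 1 stood apart as the only one of the 6 with Eif2s3y, Uty and Kdm5d all low, at 4.68, 4.72 and 5.21. Values that moved by over 1.5 times without WT array 1 are given with and without it where the results turn on them.

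The sort was checked against markers of the sorted and the excluded cells. Ly6a, which encodes the defining SCA1, had no named probe set and was not checked. Kit lay between 10.71 and 11.32, Cd34 between 11.71 and 12.17 and Ptprc, which encodes CD45, between 10.47 and 10.81. Cd3e, Cd4, Cd8a and Ly6g did not exceed 5.29, the brightness limit, in the 3 arrays that testing required, although Cd3e in KO array 3 read 5.60 and Cd4 in KO array 1 read 5.42. Itgam, which encodes the sorted-out CD11b, was detected at 7.68 to 8.65 in both genotypes.

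Loss of Zc3hc1 RNA was the 1 difference that passed the test. Its log2 values were 8.47, 8.39 and 7.99 in WT and 5.82, 5.74 and 5.78 in KO, so the groups lay far apart, with means of 8.29 ± 0.26 and 5.78 ± 0.04 (SD, n = 3). Zc3hc1 fell by 2.50 on the log2 scale (SE 0.15, 95% interval -2.83 to -2.17, limma adjusted p = 1.4e-05), a 5.67-fold difference. Leaving out any single untreated array gave -2.65 to -2.41. The labels do not place the probe set within the gene, so the value checks the labels for the RNA that this probe set reads.

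No other gene passed. Of 15348 genes 1 was called at a limma adjusted p of 0.05, which is 0.00652% of them, and the next smallest adjusted p was 0.9998. Without adjustment 330 genes had limma p under 0.05, or 2.15%, of which 218 (1.42%) were higher and 112 (0.73%) lower in KO. That share is below the 0.05 expected if no gene differed, so the counts over all genes show no excess. With so few genes under 0.05, a list of the sizes used here with 0 such members says little on its own. In 1221 genes (7.96%) all 3 KO arrays lay on the same side of all 3 WT arrays, 676 (4.4%) higher and 545 (3.55%) lower. The median log2 difference was 0.00 with quartiles of -0.09 and 0.09, so most estimates were small. In 63 genes the untreated arrays did not overlap and the unadjusted limma p was under 0.01, with 39 higher and 24 lower in KO and 4 predicted genes that are counted only, and the 12 largest higher and lower values named below are drawn from these 63.

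The intervals say how large a difference could have gone unseen. The median standard error was 0.147, and the 95% interval reached a median of 0.319 to either side of the estimate. For 14901 genes (97.1%) it lay wholly within a 2-fold difference and for 12478 (81.3%) within 1.5-fold. Only 15 genes had an estimate beyond 2-fold and 101 beyond 1.5-fold.

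**Figure D1:**
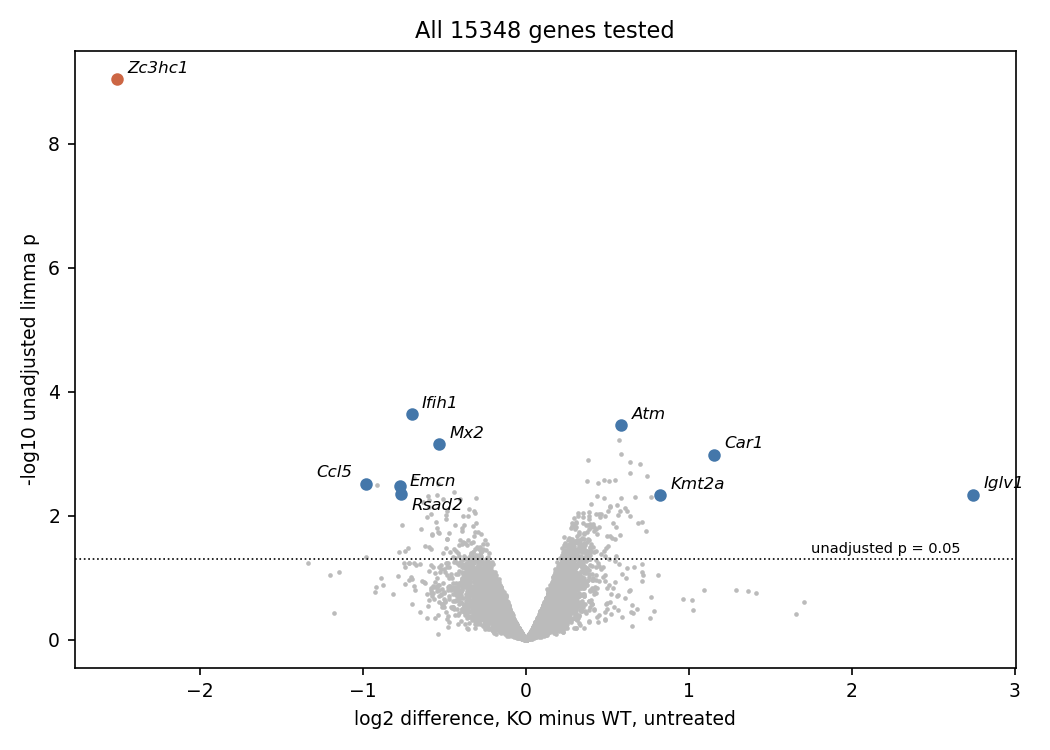
Log2 difference, KO minus WT in untreated cells (horizontal axis), against the -log10 of the unadjusted limma p (vertical axis) for the 15348 genes tested, each point 1 gene. Zc3hc1 at -2.50 stands alone at the top left, and genes such as Ifih1, Atm, Car1 and Iglv1 lie at the edges of the remaining cloud.

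Genes of the ubiquitin ligase that NIPA belongs to and of the anaphase-promoting complex did not pass the test in either direction. Of 16 tested genes of the SCF ligase, its E2 enzymes and its NEDD8 pathway, 0 had unadjusted limma p under 0.05 and the median was -0.11. Members with the smallest p were Ube2r2 at -0.16, the E2 enzyme Cdc34 at -0.15 (-0.075 without WT array 1) and Cops5, a subunit of the COP9 signalosome, at -0.21. The 18 genes of the anaphase-promoting complex, the ligase that ends mitosis, had a median of -0.04 and also 0 members under 0.05. For all 16 and all 18 of them the 95% interval lay within a 2-fold difference. Ccnb1, which encodes cyclin B1, was not measured by a probe set with a single symbol and was not analysed here.

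Cell cycle genes had list medians near 0 and varied between the pools. The 31 tested G2/M and mitosis genes had a median of 0.03 with 0 members at unadjusted limma p under 0.05, and 29 of the 31 intervals lay within 2-fold. Mki67, the proliferation antigen Ki-67, had a difference of 0.43 (SE 0.30, interval -0.22 to 1.09), the centromere protein gene Cenpf 0.32 and the spindle checkpoint kinase Ttk -0.23. Without WT array 1 these were 0.26, 0.066 and -0.37. Mean levels of the list were 8.19, 8.76 and 8.48 in the WT arrays and 8.56, 8.74 and 8.27 in the KO arrays, so the ranges overlapped and WT array 1 was lowest. Without WT array 1 the median of the list turned to -0.13. The 28 genes of G1/S and replication had a median of 0.03 (-0.05 without WT array 1), with Ccne1, which encodes cyclin E1, at 0.39 and Ccnd1 at 0.38.

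Fancd2, the Fanconi gene that NIPA has been tied to, had nearly the same mean in both genotypes. Its log2 values were 7.01, 7.47 and 7.32 in WT and 7.26, 7.47 and 7.15 in KO, a difference of 0.03 (SE 0.13) whose 95% interval of -0.27 to 0.32 leaves room for small differences in either direction. The sign turned without WT array 1, at -0.10. Of 25 Fanconi genes tested, 20 had estimates above 0 against 7925 of all 15348 genes, but 0 reached an unadjusted limma p under 0.05 and the median was 0.07 (0.01 without WT array 1). Brca2 had 0.38 and Brca1 0.35, or 0.23 and 0.12 without WT array 1.

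Atm, the kinase that signals double-strand breaks, stood out within the repair genes by the smallest p of its list. Its log2 values were 8.22, 8.31 and 8.48 in WT and 8.83, 9.01 and 8.93 in KO. All KO arrays lay above all WT arrays, and the difference was 0.59 (SE 0.12, 95% interval 0.33 to 0.85) and it did not pass the test after adjustment over all genes. The value stayed between 0.53 and 0.66 under every alternative run. In the irradiated arrays the same difference was 0.35. Atm spans 99.71 kb of genome, and higher values in KO were more frequent among long genes, as given below.

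The other recombination and end-joining genes were nearer to 0. The 24 genes of homologous recombination and damage sensing had a median of 0.07, with Atm as the 1 member at unadjusted limma p under 0.05, where 1.42% of all genes were higher. Rad50, a part of the break-binding MRN complex, had 0.22 and Xrcc3 0.23, or 0.11 and 0.071 without WT array 1. Of 14 end-joining genes the 1 under 0.05 was Prkdc, the catalytic subunit of DNA-PK, at 0.42 (SE 0.17), against the same share of all genes. Lig4, the end-joining ligase, had 0.28. Without WT array 1 the medians of these 2 lists were -0.05 and -0.02 and Prkdc had 0.27.

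Transcripts of the p53 response and of cell death had small estimates in untreated cells. The 35 tested p53 targets had a median of 0.04 with 0 members at unadjusted limma p under 0.05 and 34 intervals within 2-fold. Cdkn1a, the cell cycle inhibitor p21, read 11.35, 11.12 and 10.56 in WT and 11.02, 11.08 and 10.76 in KO, a difference of -0.06. Mdm2, the ubiquitin ligase of p53, differed by 0.06, and Plk2 had the smallest p of the list at -0.41. Among 21 cell death genes the survival factor Bcl2 was the 1 under 0.05, at 0.28 (SE 0.12), where 1.42% of all genes were higher. Bcl2l11, which encodes BIM, had 0.19 and Casp6 -0.33. Cdkn1a and Mdm2 were chosen after their values were seen.

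Genes that interferon induces had lower log2 values in KO cells, with the largest median of any process list apart from the sex-linked genes, which follow the pools. Of 33 listed genes 25 were tested, with a median difference of -0.36 against 0.00 for all genes, and 22 of the 25 estimates lay below 0. None passed the adjusted test. At an unadjusted limma p under 0.05, 10 of 25 were lower and 0 higher, where 0.73% of all genes were lower, and in 13 of 25 all KO arrays lay below all WT arrays, where 3.55% of all genes did so. Like the other lists, this one was chosen with earlier results of these data known, and its members are not separate observations. The counts therefore describe the list and are not a test of it.

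The list includes sensors of foreign RNA. Ifih1, which encodes the double-stranded RNA sensor MDA5, had log2 values of 8.57, 8.19 and 8.27 in WT and 7.59, 7.57 and 7.76 in KO. All KO arrays lay below the lowest WT array, and the difference was -0.70 (SE 0.14, 95% interval -1.0 to -0.40). Its limma p was the smallest after that of Zc3hc1. Ddx58, which encodes the RNA sensor RIG-I, read 8.49, 8.60 and 8.41 in WT and 7.98, 7.85 and 8.22 in KO, a difference of -0.48.

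Antiviral effectors of the list did not all lie lower. Rsad2, which encodes viperin, read 7.71, 7.43 and 7.06 in WT and 6.58, 6.59 and 6.73 in KO, a difference of -0.77 (SE 0.22). Mx2, a dynamin-like GTPase, read 5.81, 6.11 and 5.86 in WT and 5.56, 5.42 and 5.19 in KO, a difference of -0.53 (SE 0.12). In both genes the arrays of the genotypes did not overlap. Isg15, a ubiquitin-like modifier, read 7.32, 7.30 and 7.25 in WT and 6.68, 6.72 and 6.65 in KO, a difference of -0.61. Others showed little difference, with Ifit2 at 0.01, Ifit3 at 0.06 and Oas3 at -0.10.

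The remaining members under 0.05 were Oasl2 at -0.76, Ifit1, which binds viral RNA, at -0.78, Irf7, the transcription factor that amplifies interferon production, at -0.49, the tethering protein gene Bst2 at -0.39 and the chemokine gene Cxcl10 at -0.57. Isg15, Oasl2, Ifit1, Irf7, Ifit2, Ifit3 and Oas3 were named after their values were seen. Outside the list, Oasl1 (-0.59), the nucleotide kinase gene Cmpk2 (-0.59) and the guanylate-binding protein gene Gbp5 (-0.58), all known as interferon-induced, were among the 12 largest lower values. Whether fewer cells of a type or less RNA per cell lies behind a lower value in such bulk samples cannot be told apart.

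By array, the mean level of the 25 genes was 7.51, 7.54 and 7.32 in WT and 7.12, 7.07 and 7.13 in KO, without overlap. The count of members at unadjusted p under 0.05 ranged from 7 to 13 over the alternatives and was 8 without WT array 1, and the median ranged from -0.46 to -0.32. In the irradiated arrays the median was -0.16, with 3 of 25 lower at unadjusted limma p under 0.05, where 1.73% of all genes were. Plasmacytoid dendritic cells make much interferon. Of 17 dendritic cell markers 14 were tested, with mean levels of 7.87, 8.10 and 7.90 in WT and 7.84, 8.25 and 7.80 in KO. Siglech read 6.38 ± 0.33 in WT and 6.64 ± 0.25 in KO (SD, n = 3). Its difference was 0.26, or 0.087 without WT array 1. Bst2, on both the dendritic and the interferon list, went the other way at -0.39, with all KO arrays below all WT arrays. The part of such cells in the result was not tested.

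Promoter sequence was examined because most of these members had estimates of the same sign. Interferon-induced factors bind a repeat known as the interferon-stimulated response element, and its core, 2 copies of GAAA with any 2 bases between them, was sought on either strand in the 250 bases before each gene's start in RefSeq promoters of GRCm38.p6. Matches may overlap each other, and no second motif was searched. Of 19 tested list members with a promoter in the table, 11 held a match, or 57.9%, against 3.05% of the 11926 tested genes with one and 3.46% of all 27025 genes in the table. The list is made of genes known to respond to interferon, so this share describes the list and not the genotype difference. Windows of 60 bases on the gene's own strand are shown for 4 of the members with lower values, with the match nearest to the start in capitals.

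Rsad2: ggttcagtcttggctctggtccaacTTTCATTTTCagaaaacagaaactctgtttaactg
Isg15: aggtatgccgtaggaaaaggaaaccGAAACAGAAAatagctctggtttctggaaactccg
Bst2: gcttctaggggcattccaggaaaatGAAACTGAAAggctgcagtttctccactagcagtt
Ifit1: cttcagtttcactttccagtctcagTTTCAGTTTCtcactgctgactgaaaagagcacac

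The windows lie upstream of the genes at chr12:26456538-26456597 (minus strand) for Rsad2, chr4:156200850-156200909 (minus strand) for Isg15, chr8:71537562-71537621 (minus strand) for Bst2 and chr19:34640779-34640838 (plus strand) for Ifit1. The matches end 110, 56, 114 and 75 bases before the start. Isg15 holds 3 matches in its 250 bases and Bst2 and Ifit1 hold 2 each. The letters were not found in this window for Ifih1, Ddx58, Irf7, Oasl2, Oasl1 or Cmpk2. They were found for list members with larger unadjusted limma p (0.226 to 0.97), namely Igtp, Irgm1, Oas3, Ifit3, Stat2 and a promoter of Gbp3. Isg20, Xaf1, Irf9 and Ifit2, with p of 0.215 to 0.935 in that test, had no match. Matches were thus not confined to the members with the smallest p. A match is a run of letters and not evidence of binding in these cells.

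NF-kB and inflammation genes had lower values for some members. Of 25 tested, 5 were lower and 0 higher at unadjusted limma p under 0.05, where 0.73% of all genes were lower and 1.42% higher, and the median was -0.10. Nfkbia, whose product holds NF-kB in the cytoplasm, read 9.60, 9.58 and 9.60 in WT and 9.18, 9.32 and 9.36 in KO, a difference of -0.31 (SE 0.11). The non-canonical subunit gene Nfkb2 had -0.32, the adaptor gene Traf1 -0.59 and Cxcl10, which is also on the interferon list, -0.57. The count rested on single arrays: it was 1 without WT array 1, 1 without KO array 2, 3 without WT array 2, KO array 1 or KO array 3, and 2 with the level of Y-linked genes as a covariate. In the irradiated arrays Nfkbia differed by 0.05.

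**Figure D2:**
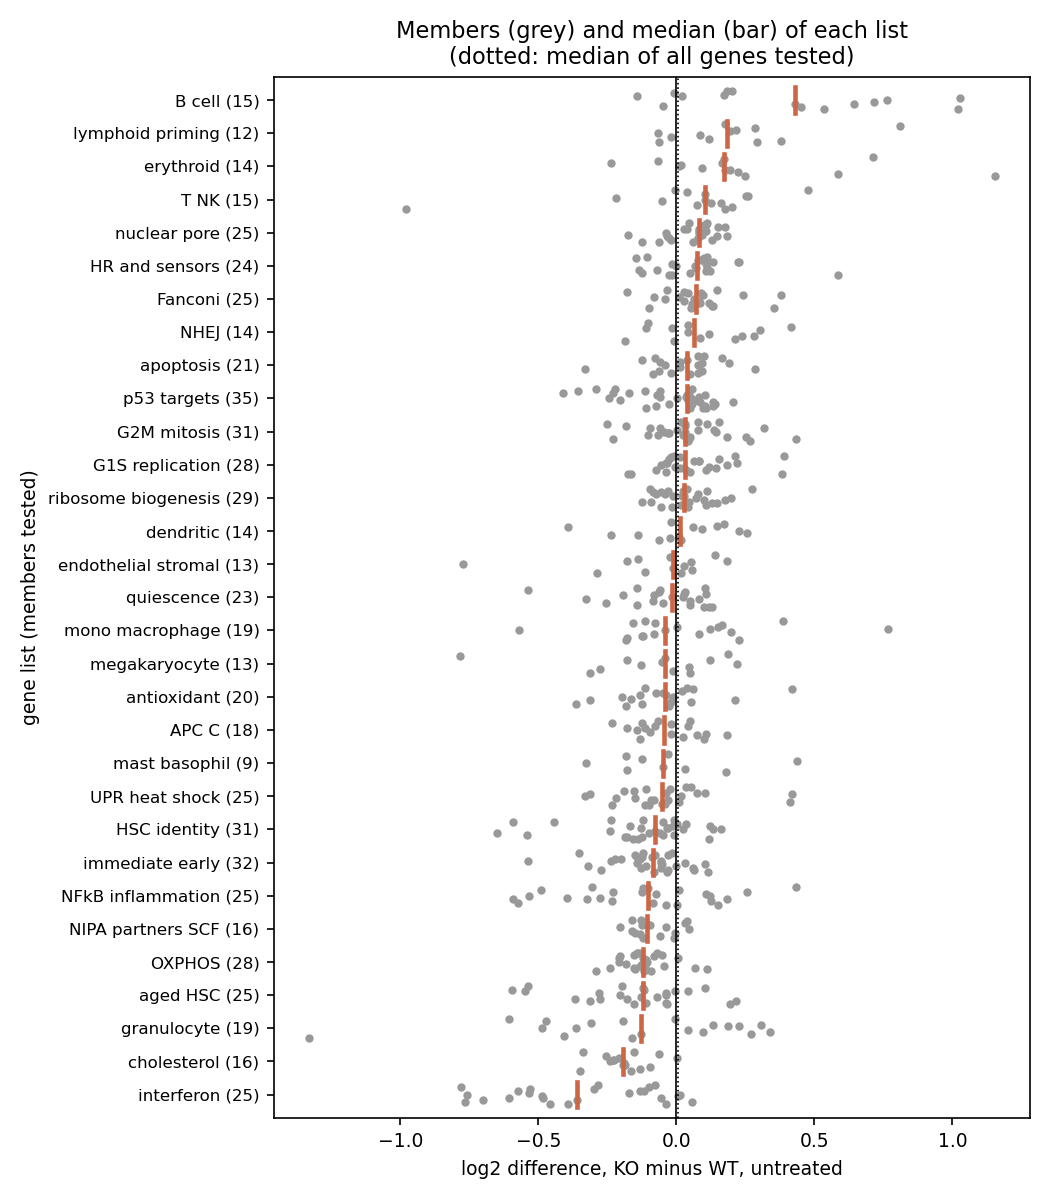
Log2 difference, KO minus WT in untreated cells (horizontal axis), of every tested member (grey points) of 31 gene lists (vertical axis, number of members tested in brackets), with each list's median as a bar and the median of all genes dotted. The interferon list has the lowest median at -0.36 and the B cell list the highest at 0.43, with a wide scatter in the B cell list.

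Most markers of red cell precursors had estimates above 0, and a few were clearly apart. Of 14 erythroid genes tested 12 had estimates above 0, against 7925 of all 15348 genes, and the median was 0.17. At unadjusted limma p under 0.05, 3 were higher and 0 lower, where 1.42% of all genes were higher. All KO arrays lay above all WT arrays in 3 and below them in 1, where 4.4% and 3.55% of all genes did so. The lowest estimate was -0.24. None passed the adjusted test. Car1, the carbonic anhydrase of early erythroid cells, read 7.76, 7.80 and 8.26 in WT and 8.92, 9.40 and 8.96 in KO, a difference of 1.16 (SE 0.27, 95% interval 0.57 to 1.74). Every KO array lay above every WT array. Rhag, of the Rh complex of the red cell membrane, read 6.18, 6.07 and 6.35 in WT and 6.82, 6.98 and 6.55 in KO, and Ermap, an erythroid membrane protein gene, 6.07, 6.34 and 6.86 against 7.05, 7.48 and 6.88. Their differences were 0.59 and 0.71.

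The mean level of the erythroid list was 6.61, 6.60 and 6.78 in WT and 6.94, 6.99 and 6.80 in KO, so KO array 3 came close to WT array 3. Without WT array 1 the median was 0.11 and 2 members were under 0.05. In the irradiated arrays Car1 differed by 0.23 and the list had a median of -0.04. The difference between the conditions did not pass the limma test for Car1. TER119-positive cells had been sorted out, and the part of erythroid-committed cells in the result was not tested.

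B lineage markers had the highest median of the 31 lists other than the sex-linked genes and varied widely between pools. The 15 genes tested had a median of 0.43, with 0 members at unadjusted limma p under 0.05. The transcription factor gene Pax5 had 0.72 (SE 0.42, or 0.47 without WT array 1), the adaptor gene Blnk 1.02 (SE 0.80, or 0.087 without KO array 2) and Ebf1, which specifies the B lineage, 1.03. Ebf1, named after its values were seen, read 5.80, 7.42 and 6.00 in WT and 6.22, 9.51 and 6.58 in KO, so KO array 2 alone was far above the rest. Mean levels of the list were 6.36, 7.26 and 6.67 in WT and 6.72, 7.91 and 6.85 in KO. Without KO array 2 the median was 0.01 and without WT array 1 it was 0.16.

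Iglv1, a variable segment of the lambda light chain, had the largest higher value of all genes. It read 5.40, 7.93 and 6.49 in WT and 9.0, 9.62 and 9.41 in KO, without overlap. The difference was 2.74 (SE 0.79, 95% interval 1.02 to 4.46), and the spread among the WT arrays of 1.27 (SD, n = 3) was far wider than the 0.32 among the KO arrays. In the irradiated arrays, where WT read 6.87, 10.43 and 8.66 and KO 10.72, 9.0 and 10.42, the groups overlapped. Light chain segments of near-identical sequence can share probes, so the gene named here is uncertain.

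**Figure D3:**
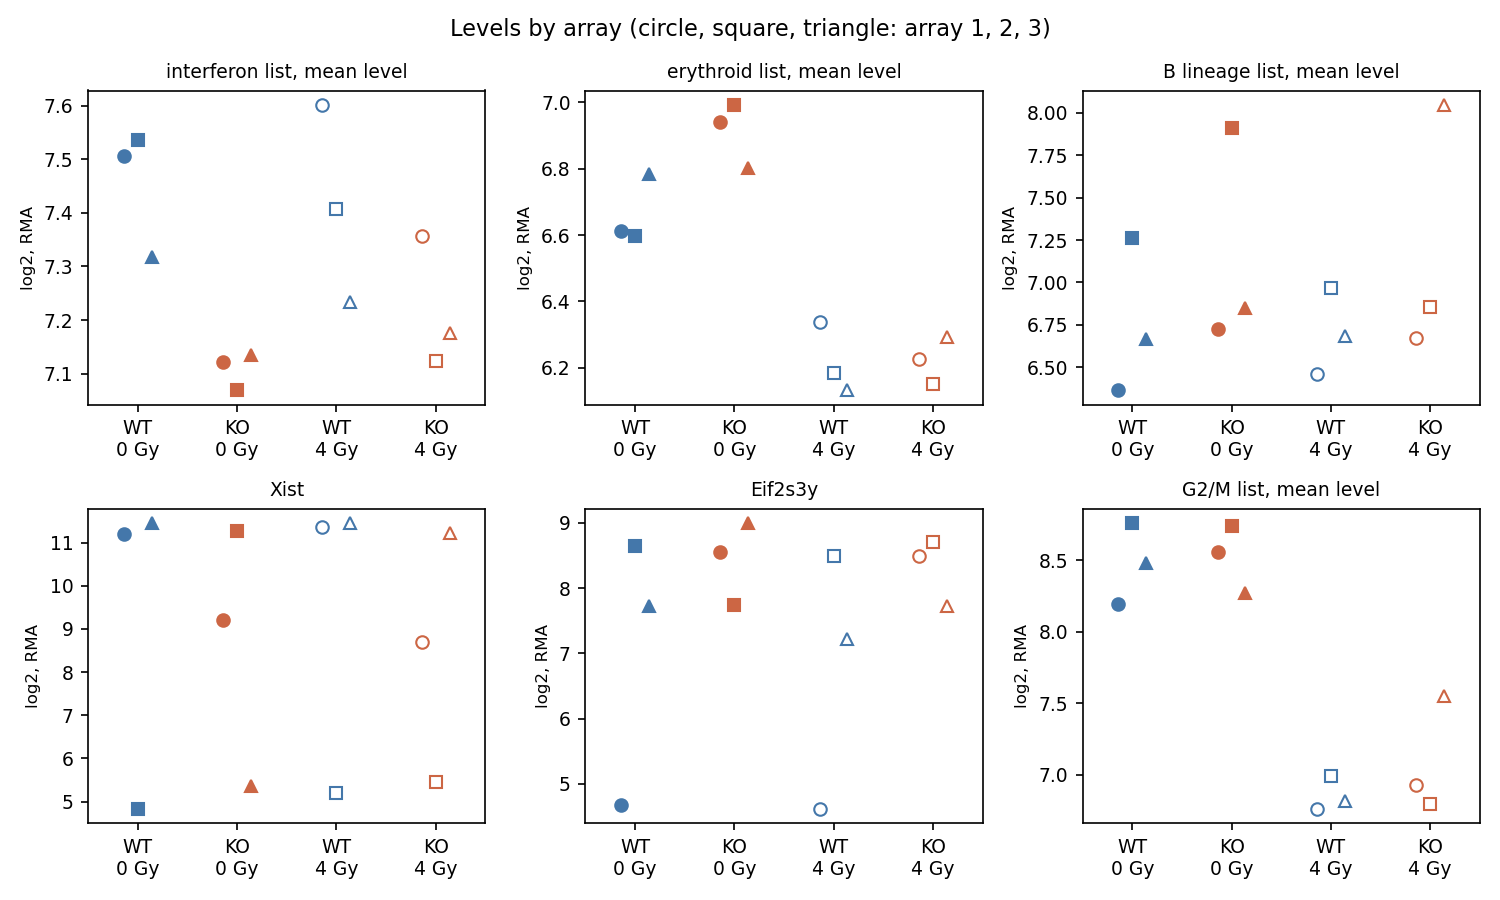
Mean log2 level of the interferon, erythroid, B lineage and G2/M lists and the log2 levels of Xist and Eif2s3y (vertical axes, each with its own range) in every array, by genotype and dose (horizontal axis, circle, square and triangle for arrays 1, 2 and 3, filled for untreated). The untreated KO arrays lie below the untreated WT arrays in the interferon panel and above them in the erythroid panel, while the other 4 panels overlap.

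Stem cell genes had no member at unadjusted limma p under 0.05, where 2.15% of all genes were. The 31 genes of stem cell identity had a median of -0.08, with 24 estimates below 0, against 7423 of all 15348 genes, and 26 intervals within 2-fold. Robo4, a receptor that anchors stem cells in the marrow, read lower in each KO array at 8.19 ± 0.22 against 8.84 ± 0.33 (SD, n = 3), a difference of -0.65 (SE 0.31). Esam, an adhesion molecule of stem cells, had -0.54 and Tek, the angiopoietin receptor, -0.59. These values shrank to -0.46, -0.21 and -0.28 without WT array 1.

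Genes known to be higher in aged stem cells followed WT array 1. The 25 tested had a median of -0.12 and 0 members at unadjusted limma p under 0.05, with Aldh1a1, a retinal dehydrogenase, at -0.55 and Plscr2 at -0.60, or -0.17 and -0.12 without WT array 1. Mean levels were 7.78, 7.01 and 7.23 in WT and 7.24, 6.90 and 7.42 in KO, so WT array 1 alone lay above the KO range. Without that array the median was 0.04. The 23 quiescence genes had a median of -0.02, with Tob1, an inhibitor of proliferation, at -0.33.

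Lymphoid and myeloid priming gave wide intervals. The 12 lymphoid priming genes had a median of 0.18 that was 0.01 without WT array 1, with the interleukin-7 receptor gene Il7r at 0.81 (SE 0.44), or 0.21 without KO array 2, and Notch1 at 0.38, or 0.085 without WT array 1. Megakaryocyte genes had a median of -0.04 over 13, with Mmrn1 at -0.79 (SE 0.43), or -0.49 without WT array 1 and -0.37 without KO array 2. Of 19 granulocyte genes only 9 had an interval within 2-fold. Camp, a peptide of neutrophil granules, read 5.62, 7.38 and 7.97 in WT and 6.44, 5.20 and 5.33 in KO, a difference of -1.33 (SE 0.64) that became -2.02 without WT array 1 and -0.84 without WT array 3. The medians of the mast cell, monocyte and dendritic lists were -0.05, -0.04 and 0.01.

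Ccl5, the chemokine RANTES, is on the T and natural killer cell list and had the largest lower value after Zc3hc1 among the 63 genes. Ccl5 read 11.30, 11.10 and 10.31 in WT and 9.94, 10.14 and 9.68 in KO, a difference of -0.98 (SE 0.27), or -0.78 without WT array 1. Of 24 listed T and natural killer genes 15 were tested, and Cd3e, Cd4 and Cd8a were too dim to be tested. Ccl5 was the 1 of the 15 that was lower at unadjusted limma p under 0.05, where 0.73% of all genes were, and the list median was 0.10. The part of T or natural killer cells in the value of Ccl5 was not tested. Emcn, the sialomucin endomucin of vessels and stem cells, read 6.60, 6.26 and 6.26 in WT and 5.58, 5.51 and 5.71 in KO, a difference of -0.77 (SE 0.21). The endothelial and stromal list of 13 had a median of -0.01, with the endothelial cadherin gene Cdh5 at -0.01 and Pecam1 at 0.03, both named after their values were seen. In 2 of the 13, Emcn and the dim Sparc (-0.29), all KO arrays lay below all WT arrays, where 3.55% of all genes did so. In 1, Col1a1 (0.14), they lay above, where 4.4% did so. The part of endothelial or stromal cells in the value of Emcn was not tested.

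Among genes outside the lists, the highest values after Iglv1 and Car1 belonged largely to long genes. Kmt2a, a histone H3K4 methyltransferase, read 10.06, 10.15 and 10.34 in WT and 10.61, 11.05 and 11.36 in KO, a difference of 0.82 (SE 0.24). Lyst, a regulator of lysosomal traffic, read 9.39, 9.60 and 9.83 in WT and 9.99, 10.36 and 10.58 in KO, a difference of 0.70. Nf1, the RAS inhibitor neurofibromin, read 9.62, 9.34 and 9.70 against 10.07, 10.10 and 10.40. No WT array reached a KO array in any of these genes.

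The centrosome gene Cep350 (0.77), the pseudokinase gene Peak1 (0.75), the chromatin remodellers Chd7 (0.64) and Chd9 (0.62) and Nbeal1 (0.61) had the same pattern. The 10 protein-coding genes among the 12 largest higher values spanned a median of 168.8 kb of genome, against 21.61 kb for all 13867 protein-coding genes tested and 24.67 kb for the 11 among the largest lower values. Divided by span into 10 bins of 1386 or 1387 genes, the genes gave 44 and 39 members higher at unadjusted limma p under 0.05 in the 2 bins of longest genes and 8 to 19 in each of the others, while the counts of lower members were 5 to 17. Median differences ran from -0.02 in the bin of shortest genes to 0.03 in bin 9. Atm and Prkdc, the repair genes under 0.05 named above, span 99.71 and 204.8 kb. The part of gene length or RNA quality in these values was not tested.

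Non-coding and dim probe sets complete the higher values. Snora75, a small nucleolar RNA, read 6.33, 6.62 and 6.33 in WT and 7.13, 6.96 and 7.20 in KO, a difference of 0.67 (SE 0.20). In the irradiated arrays it was -0.25, and the difference between conditions did not pass the limma test. Olfr331, an olfactory receptor gene, had 0.82 at levels of 4.33 to 5.52, near or below the brightness limit.

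The other lower values came from unrelated genes. Zfp979, a zinc finger gene, read 6.18, 5.83 and 6.14 in WT and 5.32, 4.70 and 5.41 in KO, a difference of -0.91 (SE 0.25). With the mean of its 3 probe sets the difference was -0.35, and related zinc finger genes of near-identical sequence can share its probes. Fjx1, a homologue of a fly Golgi kinase, had the tightest groups of the 12 largest lower values, at 6.84 ± 0.02 and 6.30 ± 0.06 (SD, n = 3) and a difference of -0.55. Cpq, a carboxypeptidase, had -0.63. Mir344f, a microRNA gene read here by an expression probe set and not by a small RNA assay, had 5.53, 5.53 and 5.43 in WT and 5.24, 4.89 and 4.33 in KO, a difference of -0.68 (SE 0.18). Its mature sequences from RefSeq follow because it is the 1 microRNA among the largest differences, with seed bases 2 to 8 in capitals.

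mmu-miR-344f-3p: cUCUAGCCaggaccugacuac
mmu-miR-344f-5p: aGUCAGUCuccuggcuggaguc

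The arms have different seeds, and the probe set cannot tell which arm, if either, was present.

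**Figure D4:**
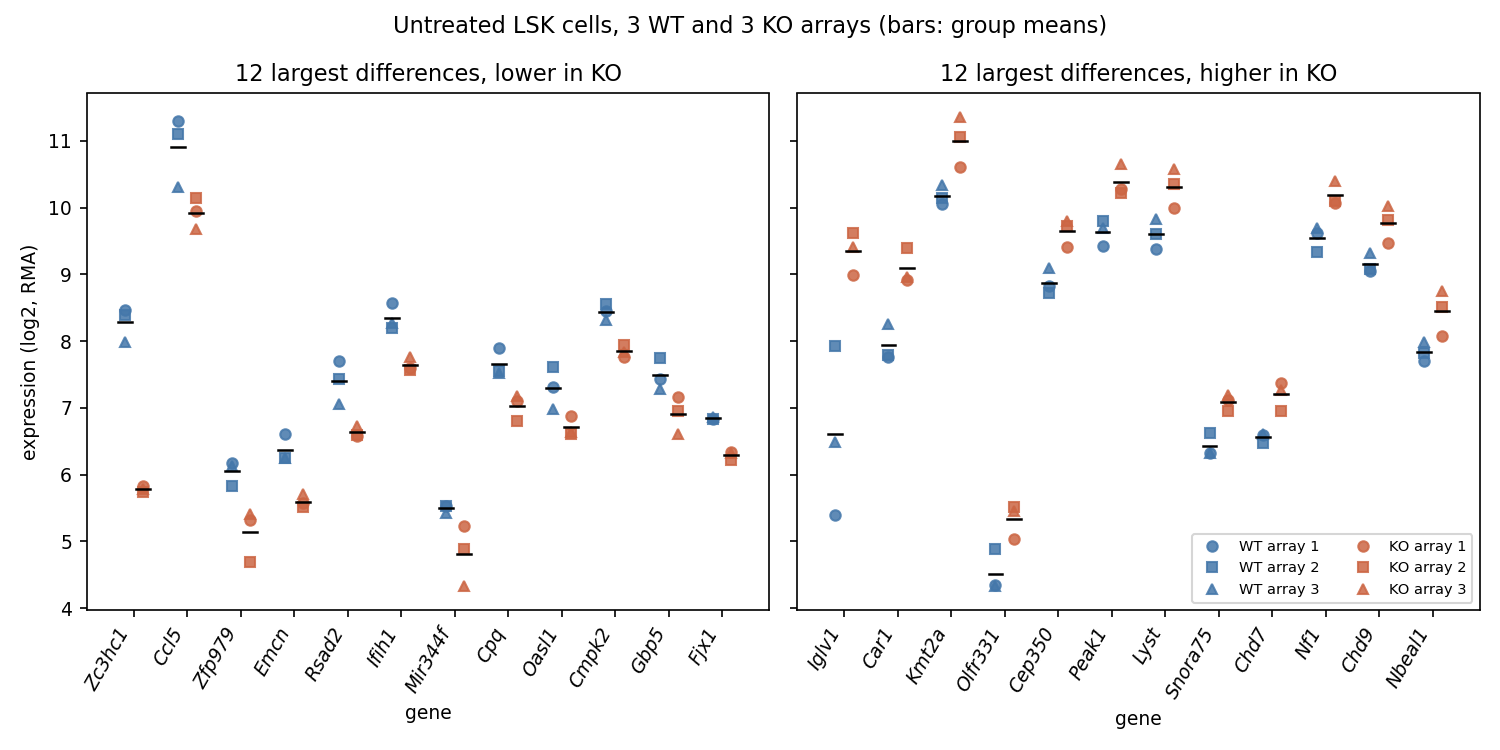
Log2 expression (vertical axis) in each untreated array of the 12 genes with the largest lower values (left) and the 12 with the largest higher values (right) among genes whose arrays did not overlap, with group means as bars and arrays 1, 2 and 3 as circles, squares and triangles. Zc3hc1 shows the widest gap for its spread, Iglv1 the widest scatter among WT arrays.

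Lists on metabolism and protein production had medians close to 0 or slightly negative. Cholesterol synthesis had a median of -0.19 over 16 genes. Of these 15 lay below 0, against 7423 of all 15348 genes, and Dhcr7, named for being the exception, had 0.00. In 4 of the 16 all KO arrays lay below all WT arrays, where 3.55% of all genes did so. Msmo1, a methylsterol monooxygenase, was the 1 member under 0.05, at -0.24 (SE 0.10), where 0.73% of all genes were lower. Cyp51 had -0.35. Oxidative phosphorylation had a median of -0.12 over 28 genes, 25 below 0, with 0 under 0.05 and all intervals within 2-fold. Ribosome biogenesis had a median of 0.03 over 29 genes. Utp20, a small-subunit processome gene, was the 1 under 0.05 at 0.28 (0.17 without WT array 1), where 1.42% of all genes were higher.

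Stress-responsive lists gave no member at unadjusted limma p under 0.05, where 2.15% of all genes were. The 32 immediate early genes had a median of -0.08 (0.00 without WT array 1), with Nr4a1 at -0.54 and Dusp1, a phosphatase of MAP kinases, at -0.35, or -0.27 and -0.20 without that array. The antioxidant list had -0.04 over 20 genes and the unfolded protein and heat shock list -0.05 over 25, with Ddit3, which encodes CHOP, at 0.41. Genes of the nuclear pore, where NIPA has been placed, had a median of 0.08 over 25, with 0 under 0.05 and all intervals within 2-fold. Ranbp2 differed by 0.15 and Sec13 by -0.18.

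Genes beside Zc3hc1 were examined because a targeted locus can carry sequence of the donor strain or disturb its neighbours. Of 40 tested neighbours, 20 on each side in the RefSeq gene order, 0 passed the adjusted limma test and 2 had unadjusted p under 0.05, where 2.15% of all genes did. Smo, the Hedgehog signal transducer, read 7.92, 8.11 and 8.06 in WT and 8.51, 8.50 and 8.24 in KO, a difference of 0.39, and Smkr-ps had -0.39. These were the extremes, and the median was -0.06. The nearest genes, Klhdc10 (-0.21), Tmem209 (0.07), Ube2h (0.00) and Nrf1 (0.09), had small differences, although all 3 KO arrays of Klhdc10 lay below its WT arrays, and in the irradiated arrays Klhdc10 differed by -0.27.

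The irradiated arrays repeat the genotype contrast, although possibly not in separate animals. Deviations of each untreated array from its group mean correlated best with those of a single irradiated array of the same genotype, at 0.420 to 0.517 in each of 6 pairings, of which 4 had the same number, and Xist levels matched in those pairings, so the values are not offered as independent evidence. KO minus WT was -0.74 for Ifih1 after irradiation (SE 0.14) against -0.70 without. It was -1.08 for Ccl5 against -0.98, 0.72 for Peak1 against 0.75, -0.33 for Rsad2 against -0.77 and 0.00 for Irf7 against -0.49.

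Differences between the 2 conditions were tested as an interaction. This test and the average below treated untreated and irradiated arrays as independent, although they may share mice. Shared mice would make p too small for the average and too large for the interaction. At a limma adjusted p of 0.05, 0 of 15348 genes differed, and 235 (1.53%) had an unadjusted p under 0.05. Averaged over both conditions, Zc3hc1 alone passed the test, and Ifih1 had a difference of -0.72 with a limma adjusted p = 0.0519. Over the alternatives this p of Ifih1 ran from 0.0497, with the mean of a gene's probe sets, to 0.306 with the replicate block. With the Y-linked covariate Abca1, a cholesterol transporter named after its values were seen, also passed the averaged test, at 0.69 (limma adjusted p = 0.0258, or 0.352 without the covariate). Whether any gene's genotype difference belongs to untreated cells only was therefore not shown.

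**Figure D5:**
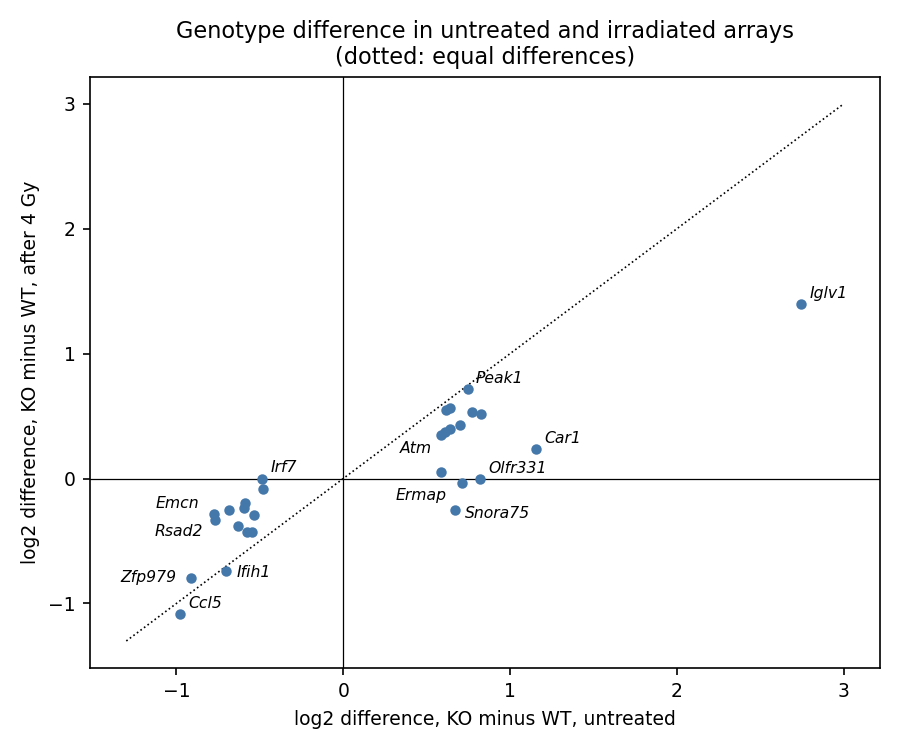
Log2 difference, KO minus WT, in untreated arrays (horizontal axis) and in irradiated arrays (vertical axis) for named genes other than Zc3hc1, 1 point per gene, with equal differences on the dotted line. Ifih1, Ccl5 and Peak1 lie near that line, and Car1, Snora75 and Irf7 lie nearer to 0 or past it after irradiation.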

How the data were processed

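The values used are log2 levels of probe sets as the authors deposited them. Per the submitters' processing notes they were made with oligo and RMA, which corrects background, normalizes by quantiles and summarises probes. Quantile normalization removes any shift common to all genes. Their versions and the genome build are not stated there. Symbols came from the platform annotation, and 23328 of 23521 single-symbol probe sets matched the RefSeq table. The brightest probe set stood for each of 1082 genes with more than 1.

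Genes above the 40th percentile of all values (5.29) in at least 3 arrays entered limma 3.58.1 (R 4.3.3), in a single fit of 4 groups over 12 arrays, with Benjamini-Hochberg adjustment over 15348 genes and two-sided p. The fit was tested on simulated data. An exact permutation test of 3 against 3 arrays cannot go below p = 0.1. The labels do not say that the pools of a group came from separate mice, so p-values measure the spread between these arrays, whose number limits the precision.

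The members and lists were chosen with earlier results of these data known. The 32 lists have 744 members: 639 tested, 29 below the limit, 34 only on probe sets with several symbols and 42 without a named probe set. Named are Zc3hc1, Fancd2, genes past the test, the 12 largest higher and lower values among genes with unadjusted p under 0.01 and arrays without overlap, up to 4 members per list by smallest p, and 5 neighbours on each side.

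Replicate numbers are given in the titles. Deviations of same-numbered untreated WT and KO arrays correlated at 0.161, 0.233 and 0.102. The numbers were therefore taken to pair the arrays in the replicate block alternative only, and the reported fit did not pair them. Of the differently numbered untreated pairs, those of WT array 1 with KO array 3 and WT array 3 with KO array 2 had 0.136 and 0.135, and the irradiated arrays numbered 2 had -0.289, so the pairing is uncertain. Of 16 alternatives, 14 were listed at the outset and 2 were added after seeing the data, the level of 3 Y-linked genes as a covariate and all probe sets.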

Additional observations from a re-analysis of the deposited data

How the results depend on the processing

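Zc3hc1 was the 1 gene past the test under all 16 alternatives, including the replicate block, where its difference was -2.50 and 456 genes had unadjusted p under 0.05 in place of 330. The block changed no call. The interaction and the 40 neighbours gave 0 genes past the limma test in every alternative run for them, and a p that misses the threshold does not show equality. Counts at unadjusted p under 0.05 were 216 to 422 with single arrays left out, 483 with only the untreated arrays, 587 of 22180 genes without a brightness limit and 1178 of 41345 over all probe sets. The higher share was 66.1% in the reported fit, 73.1% with array medians subtracted, 56.5% with cyclic loess, 57.2% with the block and 53.6% with only the untreated arrays, and no scaling moved the median of all genes by 0.1.

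Small estimates changed sign, the cause of which was not tested. With single untreated arrays left out, the estimates ranged from -0.063 to 0.033 for Ube2h, -0.10 to 0.13 for Fancd2, -0.018 to 0.38 for Cdc6, -0.043 to 0.44 for Cpa3, -2.70 to 1.08 for Xist and -0.050 to 0.21 for Tmem209. Ube2h had 0.0083 with medians subtracted. The Y-linked covariate gave 0.017 for Ube2h, -0.030 for Fancd2, -0.046 for Cpa3, 1.85 for Xist, 0.028 for F2r, -0.21 for Mcpt8 and -0.084 for Kdm5d.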
